A study of Mus musculus with 20 samples.

Results

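Knockout cones were compared between postnatal day 60 (P60) and postnatal day 50 (P50), within 1 genotype and over an interval in which the messenger RNA of several cone photoreceptor genes fell. The genes followed were those with a mean of at least 5 CPM, the count of a gene scaled to a fixed library total, over the 4 libraries concerned, 10288 of the 23077 named genes in the files, and entries without a gene name were left out. The 2 libraries of each age came from C-DGCR8 KO mice on the C57BL/6 background. These mice carry a conditional null allele of Dgcr8, the D4-cre driver, which is expressed after birth and is specific to cones, and the floxed tdTomato reporter Ai9. The wild-type (WT) libraries used beside them, 2 at P50 and 2 at P60, are labelled as D4-cre with the Ai9 tdTomato reporter, so that Cre and the reporter are shared by both genotypes, although the breeding notes also allow D4-cre alone for controls. Cones of all groups were sorted by fluorescence from retina, and total RNA was sequenced. The interval was itself chosen with the fall of cone genes known. The labels give neither the sex nor the number of animals behind a library.

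Cones are the photoreceptors of daylight and colour vision. Light isomerises the chromophore of a cone opsin, the opsin activates the G protein transducin, transducin releases a phosphodiesterase from its inhibitory subunit, and the resulting loss of cyclic GMP closes a cation channel in the outer segment. DGCR8 binds primary microRNA transcripts and together with the nuclease Drosha cuts out the hairpins from which Dicer makes mature microRNAs, so cones that lose it gradually lose their canonical microRNAs. In the retina, microRNAs of the miR-183 cluster and miR-124 are among the most abundant in photoreceptors.

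The targeted gene was read in all libraries, which checks the labels as far as counts over a whole gene can, since the labels do not say which exons are removed. Dgcr8 (chromosome 16, 18253948 to 18289246 in GRCm38) had 51.8 and 56.7 CPM at P50 and 72.0 and 66.4 CPM at P60 in the knockout, against 78.5 and 82.1 CPM in WT at P50 and 87.1 and 96.5 CPM at P60. All 4 knockout libraries of these ages lay below all 4 WT libraries. The knockout was also lower at P30 (55.8 and 58.0 against 91.5 and 81.4 CPM) and P40 (52.4 and 58.0 against 74.4 and 83.7 CPM). At P90 the genotypes overlapped, with 75.5 and 89.4 CPM in the knockout and 82.0 and 93.9 CPM in WT. Within the knockout the step in Dgcr8 did not pass the test (log2 change 0.35 ± 0.15 (SE), adjusted p = 0.204, edgeR's quasi-likelihood test with Benjamini-Hochberg adjustment). CPM here and below are scaled by the trimmed mean of M-values (TMM).

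The knockout libraries held 5109796 and 7529716 counts at P50 and 6729913 and 7994752 at P60, and the WT libraries 4342360 and 4071860 at P50 and 10373206 and 9821447 at P60. Log2 CPM of the members correlated at 0.985 between the P50 knockout replicates and 0.970 between those of P60, and at 0.963 to 0.974 across the ages. Nothing in the labels says that replicates came from separate animals, so the p-values measure only the spread between libraries, which may be technical. Several features of the libraries moved with the step. The long nuclear RNA Malat1 took 7.49% and 7.35% of all counts at P50 and 11.57% and 10.39% at P60, and genes with no count numbered 4339 and 3560 at P50 and 6818 and 5848 at P60. Odorant and vomeronasal receptor genes (1427 genes, for the most part not used in retina) held 0.0627% and 0.0603% of counts at P50 and 0.0408% and 0.0390% at P60. Their part in the results was not tested.

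The WT libraries of P60 stood apart from the other WT ages, which bears on every WT value below. From P50 to P60 the rod marker sum in WT went from 17801 and 17800 to 13718 and 13604 CPM, that of Mueller glia from 1413 and 1438 to 816 and 826 CPM and that of amacrine cells from 384 and 413 to 127 and 127 CPM. The WT cone marker sum went from 18865 and 19015 to 32497 and 31794 CPM. The receptor share in WT was 0.0633% and 0.0643% at P50 and 0.0092% and 0.0098% at P60. Age and these features of the WT libraries cannot be told apart.

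Transcripts of the sex chromosomes, chosen after their values were seen, also changed. Xist, the RNA of the inactive X chromosome, had 466 and 499 CPM at P50 and 1731 and 1808 CPM at P60 (log2 change 1.87 ± 0.092 (SE), adjusted p = 1.52e-21), and the Y-linked Uty had 150.2 and 165 CPM at P50 and 95.3 and 96.8 CPM at P60 (log2 change -0.72 ± 0.12 (SE), adjusted p = 3.16e-05). The Y-linked Kdm5d went from 81.2 and 89.3 to 42.5 and 47.3 CPM, Ddx3y from 264 and 248 to 157 and 185 CPM and Eif2s3y from 103 and 97.1 to 61.1 and 66.1 CPM, with log2 changes of -0.93, -0.58 and -0.65. In all 5 genes the ages did not overlap. Ddx3y was not called without KO P60 replicate 1 (adjusted p = 0.0522), nor Eif2s3y without KO P50 replicate 1 (adjusted p = 0.0501). The part of a differing mix of sexes in other genes was not tested. Of the 344 X-linked members other than Xist and its antisense Tsix, 11 were called higher and 13 lower with a median log2 change of 0.020, beside 338 higher and 279 lower of 9811 autosomal members with a median of 0.019.

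Over the members, 651 genes changed between P50 and P60 at an adjusted p below 0.05, which is 6.33% of the members. Of these 353 rose (3.43%) and 298 fell (2.90%), and 54 and 42 of them changed by at least 2-fold. The median log2 change of all members was 0.018. Over all 18354 tested genes 3.97% were called. Counts in the gene lists below are to be read beside the shares of all members, 3.43% higher and 2.90% lower. In each of the 651 the P50 and P60 libraries did not overlap, but this also held for 48.3% of all members (2727 higher and 2237 lower at P60). In bulk RNA, fewer cells of a type in the sort and less RNA of a gene per cell cannot be told apart. Between replicates the variance over the members was 3.07 times the sampling variance at P50 and 8.55 times at P60. The counts depended on which library was left out. They were 99 higher and 159 lower without KO P50 replicate 1, 114 and 131 without KO P50 replicate 2, 165 and 137 without KO P60 replicate 1, and 311 and 379 without KO P60 replicate 2. A fit of the 10 knockout libraries alone, an alternative added once results were known, called 579 higher and 428 lower. The minimum of 5 CPM left out 8066 tested genes, of which 3 were called higher and 74 lower. On the unscaled CPM that the minimum uses, Rpl7a, Pcsk6 and Snord8 lay just under 5 and Dbf4, Sord and Fadd at 5.01 to 5.02, and none of the 6 was called. In what follows P50 r1, P50 r2, P60 r1 and P60 r2 stand for the 2 knockout replicates of each age, a gene called is one at an adjusted p below 0.05, and a bracketed value after a library left out or another fit is the adjusted p there.

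**Figure D1:**
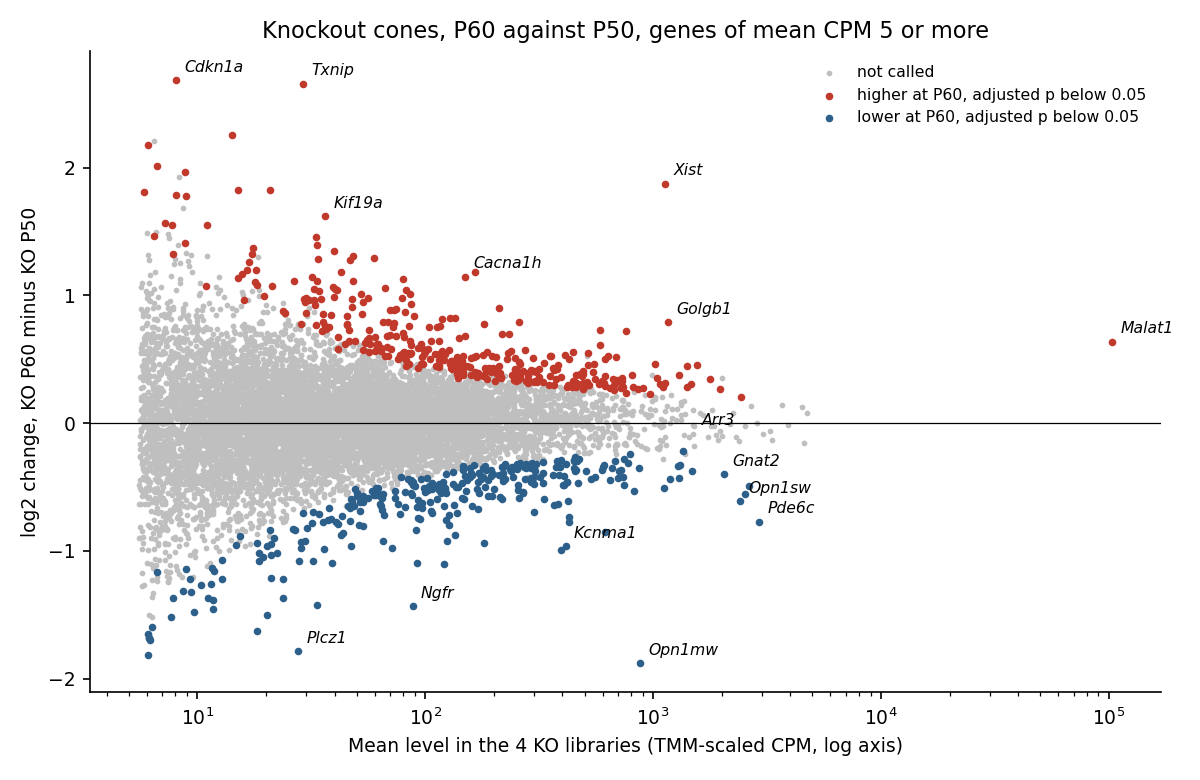
Log2 change from P50 to P60 in knockout cones (vertical axis) against mean level (horizontal log axis, TMM-scaled CPM) for the 10288 members, with 353 genes called higher in red, 298 called lower in blue and the rest in grey. Opn1mw lies lowest among the abundant genes, Txnip and Cdkn1a highest, and Malat1 far to the right.

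Genes of the cone visual cascade were among those that fell. Of 23 members of the cone phototransduction list 8 fell, where 2.90% of all members did. The other 15 were not called, and the median log2 change was -0.11. No member was called higher by edgeR or by DESeq2, with 3 higher at an unadjusted p below 0.05. The count of 8 was the same whichever of the 4 knockout libraries was left out, and 8 to 10 under the other settings.

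The 2 cone opsins moved by different amounts. Opn1mw, the middle-wavelength opsin (chromosome X, 74127464 to 74150760), had 1364 and 1389 CPM at P50 and 360.2 and 387 CPM at P60. Both P60 libraries were far below both P50 libraries, a 3.68-fold fall (log2 change -1.88 ± 0.093 (SE), adjusted p = 6.31e-17). Opn1sw, the short-wavelength opsin (chromosome 6, 29376671 to 29388468), had 2926.5 and 2867.5 CPM at P50 and 1795 and 1995 CPM at P60, a 1.53-fold fall (log2 change -0.61 ± 0.059 (SE), adjusted p = 1.17e-12). Levels at the ages around the step show where it lies in the whole course. At P30 Opn1mw stood at 2003 and 2183 CPM, at P40 at 2283 and 2241 CPM and at P90 at 12.6 and 7.08 CPM, so that levels were below those of P40 at each later age. Opn1sw was at 4251 and 4071 CPM at P30, 3055 and 3008 CPM at P40 and 1079.8 and 1069 CPM at P90, a more gradual course. Steps at other ages share libraries with this one, and their values are given without a test.

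Downstream of the opsins, subunits of the same complexes are given side by side. Pde6c, the catalytic subunit of the cone phosphodiesterase (chromosome 19, 38132781 to 38183958), had 3730.5 and 3639 CPM at P50 and 2167 and 2152 CPM at P60, a 1.71-fold fall (log2 change -0.77 ± 0.067 (SE), adjusted p = 1.76e-13). Its inhibitory partner Pde6h had 1255 and 1253 CPM at P50 and 1237 and 1319.7 CPM at P60, with overlapping libraries and no call (log2 change 0.028 ± 0.087 (SE), adjusted p = 0.926). Gnat2, the α subunit of cone transducin (chromosome 3, 108092789 to 108101432), had 2327.5 and 2305 CPM at P50 and 1769.5 and 1741 CPM at P60 and fell 1.32-fold (log2 change -0.40 ± 0.068 (SE), adjusted p = 3.61e-05). Gnb3, the β subunit of cone transducin, had 1289 and 1272 CPM at P50 and 1479.6 and 1403 CPM at P60, with both P60 libraries higher but no call (log2 change 0.17 ± 0.072 (SE), adjusted p = 0.202). Cnga3, the main subunit of the cone channel, had 408 and 418 CPM at P50 and 324 and 302 CPM at P60 (log2 change -0.40 ± 0.085 (SE), adjusted p = 0.00114), and fell. The channel's modulatory subunit Cngb3 had 610.4 and 671 CPM at P50 and 621 and 607 CPM at P60 and was not called (log2 change -0.061 ± 0.075 (SE), adjusted p = 0.756). Whether partners differ in their change was not tested. At P30 Pde6c had 5351 and 5171.5 CPM and Gnat2 3037 and 2954 CPM in the knockout, above their P50 levels.

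Rcvrn, which encodes recoverin, a calcium sensor that restrains opsin kinase, went from 629 and 649.7 to 465 and 488 CPM (log2 change -0.43 ± 0.074 (SE), adjusted p = 4.79e-05). Guca1a, an activator of guanylate cyclase, went from 1435 and 1442 to 1122 and 1159 CPM (log2 change -0.33 ± 0.069 (SE), adjusted p = 0.00073), and Kcnv2, a modulatory potassium channel subunit, went from 634 and 592 to 419 and 486 CPM (log2 change -0.44 ± 0.079 (SE), adjusted p = 9.53e-05). In none of these did the ages overlap. Rcvrn had been higher at P30, at 988 and 983 CPM. Arr3, the cone arrestin that ends opsin signalling, had 1556 and 1526 CPM at P50 and 1391 and 1520.2 CPM at P60, which is no call (log2 change -0.082 ± 0.068 (SE), adjusted p = 0.605). By P90 Arr3 stood at 467 and 482 CPM and Pde6h at 517 and 541 CPM, below their P60 levels. The cone markers together, 12 genes, summed to 17323 and 17254 CPM at P50 and 12752 and 13128 CPM at P60. Beside this the sum of 15 rod markers went from 13457 and 13649 to 14666 and 14523 CPM, and its part in the fall of cone genes was not tested.

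**Figure D2:**
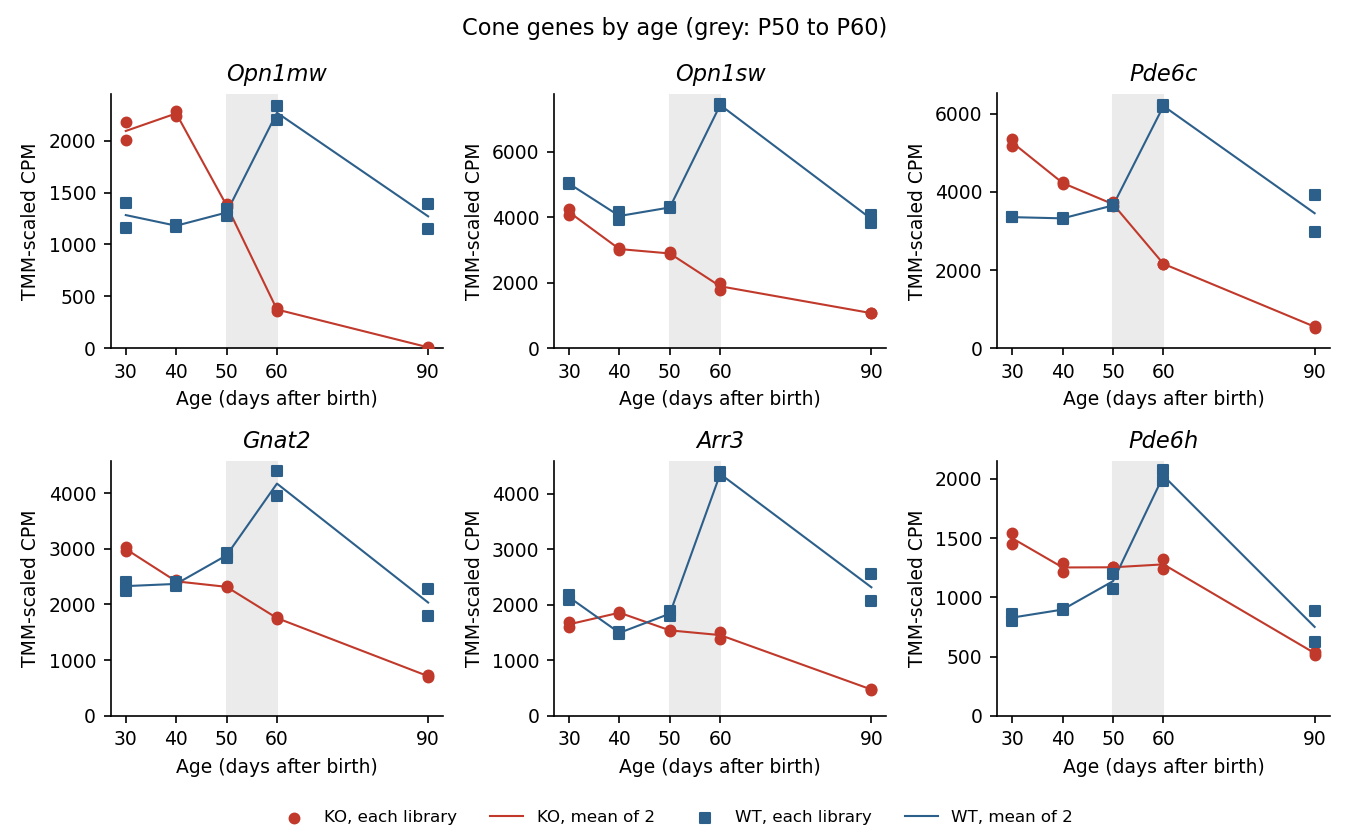
TMM-scaled CPM of 6 cone genes (vertical axes from 0) against age in days after birth, with each knockout library as a red circle, each WT library as a blue square, and lines through the means of 2. Between P50 and P60 (grey) Opn1mw, Opn1sw, Pde6c and Gnat2 fall in the knockout while Arr3 and Pde6h are not called, and the WT libraries at P60 stand above the other WT ages.

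The 250 bases before the start of 3 cone genes that fell and of Arr3, which was not called, are shown because photoreceptor promoters are known for the short element bound by the homeodomain factors CRX and OTX2. They are RefSeq windows of GRCm38.p6, written 5′ to 3′ along the gene, and capitals mark TAATC or its reverse complement GATTA, searched on both strands. The RefSeq starts differ from those of the annotation used for the gene coordinates above, so the windows of Opn1sw and Gnat2 lie within the longer gene spans given there. The windows are chrX:74127216-74127465 on the plus strand, chr6:29380514-29380763 on the minus strand, chr3:108092816-108093065 on the plus strand and chrX:100605247-100605496 on the plus strand.
Opn1mw: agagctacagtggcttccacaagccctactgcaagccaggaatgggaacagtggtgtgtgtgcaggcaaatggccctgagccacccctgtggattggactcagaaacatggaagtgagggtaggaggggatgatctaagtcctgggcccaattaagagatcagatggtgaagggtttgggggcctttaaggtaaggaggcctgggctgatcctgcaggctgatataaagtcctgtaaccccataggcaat
Opn1sw: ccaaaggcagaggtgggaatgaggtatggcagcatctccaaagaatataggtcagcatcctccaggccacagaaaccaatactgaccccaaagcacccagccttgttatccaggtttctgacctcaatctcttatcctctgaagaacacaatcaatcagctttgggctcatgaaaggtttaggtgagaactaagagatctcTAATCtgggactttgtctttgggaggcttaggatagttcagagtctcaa
Gnat2: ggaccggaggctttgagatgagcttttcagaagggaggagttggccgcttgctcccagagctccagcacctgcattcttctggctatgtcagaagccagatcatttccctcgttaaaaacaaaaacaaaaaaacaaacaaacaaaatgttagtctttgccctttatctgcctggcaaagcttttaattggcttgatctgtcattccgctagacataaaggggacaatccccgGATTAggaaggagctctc
Arr3: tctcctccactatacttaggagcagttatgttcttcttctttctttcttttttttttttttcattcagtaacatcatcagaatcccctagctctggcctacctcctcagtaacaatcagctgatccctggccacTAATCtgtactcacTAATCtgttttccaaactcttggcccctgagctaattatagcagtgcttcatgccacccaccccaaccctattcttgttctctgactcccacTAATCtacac
The motif occurs 3 times before Arr3 and 1 time each before Opn1sw and Gnat2, and these letters are not in the window of Opn1mw. Of all 32851 promoter windows of this length 19.8% hold it at least 1 time and 3.28% at least 2 times. A match is a description of the letters and not a measured site. Crx itself had 1496 and 1547 CPM at P50 and 1459.9 and 1544 CPM at P60 (log2 change -0.019 ± 0.074 (SE), adjusted p = 0.947), and Otx2 had 101 and 104 CPM at P50 and 148 and 124 CPM at P60 (log2 change 0.41 ± 0.13 (SE), adjusted p = 0.0503), neither of them called.

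The outer segment is the stack of membrane that holds the cascade. Of 15 members of the outer segment list 3 fell, Impg1 and Crb1 among them, and 1 rose, with a median log2 change of -0.017. Impg1, a proteoglycan of the matrix around outer segments, went from 506 and 515 to 332 and 337 CPM (log2 change -0.61 ± 0.095 (SE), adjusted p = 6.17e-06), and Crb1, a polarity protein of the photoreceptor membrane, from 331 and 306 to 211 and 226 CPM (log2 change -0.54 ± 0.084 (SE), adjusted p = 4.95e-06). Pcdh15, a cadherin of photoreceptor and hair cell processes, rose from 1277 and 1342 to 1681 and 1909.9 CPM (log2 change 0.46 ± 0.070 (SE), adjusted p = 3.21e-06). Its other knockout levels were 1336 and 1337 CPM (P30), 1809 and 1799 CPM (P40) and 1027 and 1039 CPM (P90), so P60 was near the P40 level. 

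Among 37 members of the cilium and intraflagellar transport list 2 rose and 3 fell, with a median of -0.032. Cep290, of the connecting cilium's transition zone, had 601 and 567 CPM at P50 and 742 and 743 CPM at P60 (log2 change 0.35 ± 0.081 (SE), adjusted p = 0.00419), and Rpgr, which encodes its GTPase regulator, had 62.7 and 46.2 CPM at P50 and 76.2 and 86.9 CPM at P60 (log2 change 0.60 ± 0.16 (SE), adjusted p = 0.0159). Unc119 and Pde6d, carriers of acylated and prenylated proteins, had log2 changes of -0.37 and -0.66, and Lca5 (lebercilin) of -0.35, with adjusted p of 0.00246, 0.0195 and 0.012. Cep290 was not called without P50 r2 (0.166). Rpgr was not called with only the 2 groups fitted (0.062), without P50 r2 (0.456) or P60 r2 (0.131). Unc119 was not called without P50 r1 (0.0882) or P60 r1 (0.243). Pde6d was not called with only the 2 groups fitted (0.0653), without P50 r1 (0.251), P50 r2 (0.0634) or P60 r1 (0.378). Lca5 was not called without P50 r1 (0.0966), P50 r2 (0.138) or P60 r1 (0.112).

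At the synapse, where cones release glutamate from ribbons, 3 of 28 members rose and 4 fell, beside 3.43% and 2.90% of all members. The median was 0.0066. The complexins, which regulate vesicle fusion at ribbons, moved in opposite directions at this step. Cplx3 had 369 and 354 CPM at P50 and 531 and 534 CPM at P60 (log2 change 0.56 ± 0.090 (SE), adjusted p = 1.18e-05), and Cplx4 had 556 and 531 CPM at P50 and 403 and 383 CPM at P60 (log2 change -0.47 ± 0.085 (SE), adjusted p = 0.000115). At other knockout ages Cplx3 had 571 and 569 CPM (P30), 432 and 450 CPM (P40) and 278 and 305 CPM (P90). Those of Cplx4 were 988 and 1018 CPM at P30 and 379 and 344 CPM at P90. Both rose in WT, by 0.82 and 0.36, and only the difference of Cplx4 was called. Stx3, the syntaxin of ribbon synapses, fell from 1304.5 and 1325 to 885 and 968 CPM (log2 change -0.50 ± 0.073 (SE), adjusted p = 7.11e-07), and the scaffold gene Dlg4 by less (log2 change -0.30, adjusted p = 0.0418). Pclo, a scaffold of the active zone, and Cacna2d4, a subunit of its calcium channel, rose with log2 changes of 0.38 and 0.28 (adjusted p = 0.0108 and 0.0173). Unc119 is the further member that fell. Dlg4 was not called with only the 2 groups fitted (0.0922), without P50 r1 (0.17), P50 r2 (0.24) or P60 r2 (0.455). Pclo was not called without P50 r1 (0.291) or P60 r1 (0.1). Cacna2d4 was not called without P50 r1 (0.247), P50 r2 (0.162) or P60 r1 (0.242).

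Of 18 photoreceptor transcription factors 2 rose, 1 fell and 15 were not called, with a median of 0.060. Samd11, a nuclear protein of photoreceptors, rose from 75 and 79.8 to 124 and 137 CPM (log2 change 0.75 ± 0.14 (SE), adjusted p = 0.000228) and Casz1, a zinc-finger factor of retinal development, from 218 and 226 to 314 and 266 CPM (log2 change 0.39 ± 0.095 (SE), adjusted p = 0.00688). Prdm1, a factor that sets photoreceptor against bipolar fate, fell from 86.5 and 77.7 to 52.0 and 47.6 CPM (log2 change -0.72 ± 0.15 (SE), adjusted p = 0.00126). Casz1 was not called without P50 r1 (0.168), P50 r2 (0.0759) or P60 r1 (0.289). Its knockout levels at P40, 297 and 269 CPM, were near those of P60. Thrb and Rxrg, the nuclear receptors that pattern cone opsins, had log2 changes of -0.020 ± 0.080 and -0.54 ± 0.18 (SE), with adjusted p of 0.948 and 0.0751.

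Genes of smallest p among those that fell also lay outside these lists. Kcnma1, the pore subunit of the large-conductance calcium-activated potassium channel (chromosome 14, 23289431 to 24014491), had 548 and 543 CPM at P50 and 263 and 296 CPM at P60 (log2 change -0.96 ± 0.087 (SE), adjusted p = 1.20e-13). Ngfr, the p75 neurotrophin receptor (chromosome 11, 95568818 to 95587735), had 126 and 130.4 CPM at P50 and 51.5 and 43.7 CPM at P60, a 2.70-fold fall (log2 change -1.43 ± 0.15 (SE), adjusted p = 9.76e-12). Jam3, a junctional adhesion molecule, had 173 and 156 CPM at P50 and 73.5 and 79.0 CPM at P60 (log2 change -1.11 ± 0.11 (SE), adjusted p = 1.55e-12). In all 3 the P60 libraries were close to each other and well under the P50 libraries, and at P90 they stood lower again, Kcnma1 at 109 and 118 CPM, Ngfr at 11.5 and 11.4 CPM and Jam3 at 24.2 and 26.1 CPM. Levels before P50 were higher, at P30 681 and 688 CPM for Kcnma1, 203 and 175 CPM for Ngfr and 247 and 247 CPM for Jam3. At P40 these were 614 and 631, 129 and 129, and 170 and 193 CPM.

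Fam19a3, a secreted protein of the TAFA family, went from 525 and 525 to 264 and 263 CPM (log2 change -0.99 ± 0.094 (SE), adjusted p = 3.55e-11). Plcz1, a phospholipase C best known from sperm, went from 46.5 and 39.5 to 8.98 and 15.5 CPM and had the largest log2 fall after Opn1mw among the genes named by smallest p (log2 change -1.79 ± 0.19 (SE), adjusted p = 2.40e-11). Akap11, an anchoring protein for protein kinase A, went from 3056 and 2953 to 1879.7 and 2209.5 CPM (log2 change -0.56 ± 0.065 (SE), adjusted p = 1.20e-09). In each of these the P50 libraries were above both P60 libraries. At P30 the knockout had higher levels than at P50 of Fam19a3 (944 and 947 CPM) and Plcz1 (119 and 117 CPM), but not of Akap11 (2852 and 2788 CPM). Osgep, an enzyme of transfer RNA modification, went from 124 and 126 to 62.7 and 54.6 CPM (log2 change -1.09 ± 0.13 (SE), adjusted p = 1.20e-09), Etv5, an ETS transcription factor, from 48.4 and 57.0 to 28.8 and 21.0 CPM (log2 change -1.09 ± 0.20 (SE), adjusted p = 0.000103), and the small GTPase gene Gem from 91.6 and 98.4 to 50.1 and 46.4 CPM (log2 change -0.98 ± 0.13 (SE), adjusted p = 2.15e-07). Tmsb10, an actin-binding thymosin, went from 62.7 and 62.0 to 29.5 and 34.3 CPM (log2 change -0.96 ± 0.15 (SE), adjusted p = 2.53e-06) and Il9r, the receptor of interleukin 9, from 44.0 and 51.7 to 27.1 and 21.4 CPM (log2 change -0.99 ± 0.22 (SE), adjusted p = 0.00244). Il9r was not called without P50 r2 (0.102) or P60 r2 (0.0562). Osgep and Tmsb10 were also above their P50 levels at P30, at 225.5 and 203 CPM and at 149 and 116 CPM.

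Photoreceptors depend on aerobic glycolysis. Of 29 glycolysis members 2 rose and 3 fell, with a median of -0.060. Eno2, the neuronal enolase (chromosome 6, 124760053 to 124769673), had 541 and 527.5 CPM at P50 and 334 and 307 CPM at P60 (log2 change -0.74 ± 0.083 (SE), adjusted p = 2.72e-10). Hk2, the hexokinase of photoreceptors, went from 825 and 855 to 643 and 612 CPM (log2 change -0.42 ± 0.080 (SE), adjusted p = 0.000202), and Slc16a1, a monocarboxylate transporter, from 481 and 508 to 399 and 406 CPM (log2 change -0.30 ± 0.084 (SE), adjusted p = 0.0234). Pfkm, the muscle-type phosphofructokinase, rose from 78.4 and 82.2 to 118 and 104 CPM (log2 change 0.46 ± 0.13 (SE), adjusted p = 0.0255). The mitochondrial creatine kinase gene Ckmt1, which is on no list, fell from 564 and 512 to 320.1 and 308 CPM (log2 change -0.78 ± 0.082 (SE), adjusted p = 3.55e-11). Its P30 level in the knockout was 804 and 813 CPM. Slc16a1 was not called without P50 r1 (0.0809), P50 r2 (0.292), P60 r1 (0.164) or P60 r2 (0.0647). Pfkm was not called with only the 2 groups fitted (0.0579), without P50 r1 (0.274), P50 r2 (0.154) or P60 r1 (0.273).

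In the oxidative phosphorylation list 59 of 76 members had a log2 change below 0, against 4894 of the 10288 members, and the median was -0.14. Only Atp5g3, a subunit of the ATP synthase rotor, was called (log2 change -0.57 ± 0.17 (SE), adjusted p = 0.0449), and 9 members passed an unadjusted p of 0.05, all of them lower. Cytosolic ribosomal proteins had a median of -0.082 over 75 members, with Rps3 called lower (log2 change -0.34 ± 0.10 (SE), adjusted p = 0.0416). Atp5g3 was not called with only the 2 groups fitted (0.0659), without P50 r1 (0.143), P50 r2 (0.311), P60 r1 (0.154) or P60 r2 (0.149). Rps3 was not called without P50 r1 (0.105), P50 r2 (0.328), P60 r1 (0.287) or P60 r2 (0.0562). Genes of such lists have processed copies elsewhere in the genome whose reads may be split.

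Txnip had the largest rise among the genes named by smallest p. It encodes thioredoxin-interacting protein, which restrains glucose uptake and binds thioredoxin (chromosome 3, 96557957 to 96561883), and it is the further riser of the glycolysis list. Its level was 7.44 and 8.40 CPM at P50 and 53.9 and 47.0 CPM at P60, a 6.32-fold rise with no overlap (log2 change 2.66 ± 0.28 (SE), adjusted p = 3.55e-11). At P30 it had been 4.12 and 4.24 CPM and at P40 6.61 and 8.53 CPM, and at P90 it reached 123 and 108 CPM. The 4 WT libraries of P50 and P60 held 2.996 and 2.74 and 2.85 and 2.41 CPM, all below the 4 knockout libraries.

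Other genes of smallest p rose from higher levels. Golgb1, the Golgi tether giantin (chromosome 16, 36875140 to 36933085), had 838 and 865 CPM at P50 and 1544 and 1399 CPM at P60 (log2 change 0.79 ± 0.077 (SE), adjusted p = 2.24e-12), and Hook3, an adaptor of microtubule motors (chromosome 8, 26021421 to 26119224), had 550.3 and 599 CPM at P50 and 924 and 973 CPM at P60 (log2 change 0.72 ± 0.081 (SE), adjusted p = 2.72e-10). The levels of Hook3 were higher at each later knockout age, from 389 and 394 CPM at P30 to 1282 and 1209 CPM at P90. Cit, the citron kinase of cell division, went from 146 and 146 to 296 and 251 CPM (log2 change 0.90 ± 0.12 (SE), adjusted p = 4.24e-08). Kif19a, a kinesin that depolymerises microtubules of cilia, went from 17.8 and 17.9 to 55.5 and 54.6 CPM, a 3.07-fold rise (log2 change 1.62 ± 0.27 (SE), adjusted p = 1.68e-05).

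Cacna1h, a pore subunit of T-type calcium channels (chromosome 17, 25374285 to 25433783), had 95.0 and 91.2 CPM at P50 and 212 and 201 CPM at P60, a 2.22-fold rise (log2 change 1.15 ± 0.12 (SE), adjusted p = 1.05e-11), and Kcnab1, a potassium channel β subunit, went from 202 and 175 to 336 and 317 CPM (log2 change 0.79 ± 0.11 (SE), adjusted p = 1.36e-07). Tc2n, a protein with C2 domains, went from 101 and 102 to 233 and 228 CPM (log2 change 1.18 ± 0.12 (SE), adjusted p = 2.19e-11). Replicates of an age were close together in all 3. At other knockout ages Kcnab1 had 181 and 189 CPM (P30), 262 and 246 CPM (P40) and 219 and 219 CPM (P90). Peg3, an imprinted zinc-finger gene, went from 423 and 457 to 766 and 696 CPM (log2 change 0.73 ± 0.088 (SE), adjusted p = 3.45e-09), Cd164, a sialomucin, from 49.1 and 64.0 to 96.9 and 132 CPM (log2 change 1.01 ± 0.15 (SE), adjusted p = 1.96e-06), and Polr2a, the largest subunit of RNA polymerase II, from 160.2 and 170.2 to 278 and 258 CPM (log2 change 0.70 ± 0.11 (SE), adjusted p = 3.67e-06).

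Less abundant genes with rises of 2-fold or more were Eno3, the muscle enolase, from 23.8 and 21.3 to 48.8 and 65.8 CPM (log2 change 1.35 ± 0.22 (SE), adjusted p = 1.14e-05), and Mvp, the major vault protein, from 49.5 and 51.1 to 113 and 107 CPM (log2 change 1.13 ± 0.19 (SE), adjusted p = 2.54e-05). Nell2, a secreted neural protein, went from 38.03 and 31.6 to 61.6 and 108 CPM (log2 change 1.29 ± 0.22 (SE), adjusted p = 2.82e-05), with its P60 replicates far apart from each other but above both P50 libraries. Slc24a5, an exchanger known from pigment cells, Cd8a, a T-cell coreceptor chain, and Nynrin and Rgag4, both derived from retroelements, had log2 changes of 1.31, 1.28, 1.18 and 1.11 with adjusted p of 0.000394, 0.00445, 0.00073 and 0.000527. Slc24a5 was not called without P50 r2 (0.154). Cd8a was not called with DESeq2 (0.184), without P50 r1 (0.107), P50 r2 (0.0647) or P60 r2 (0.109). Rgag4 was not called without P50 r2 (0.0789).

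**Figure D3:**
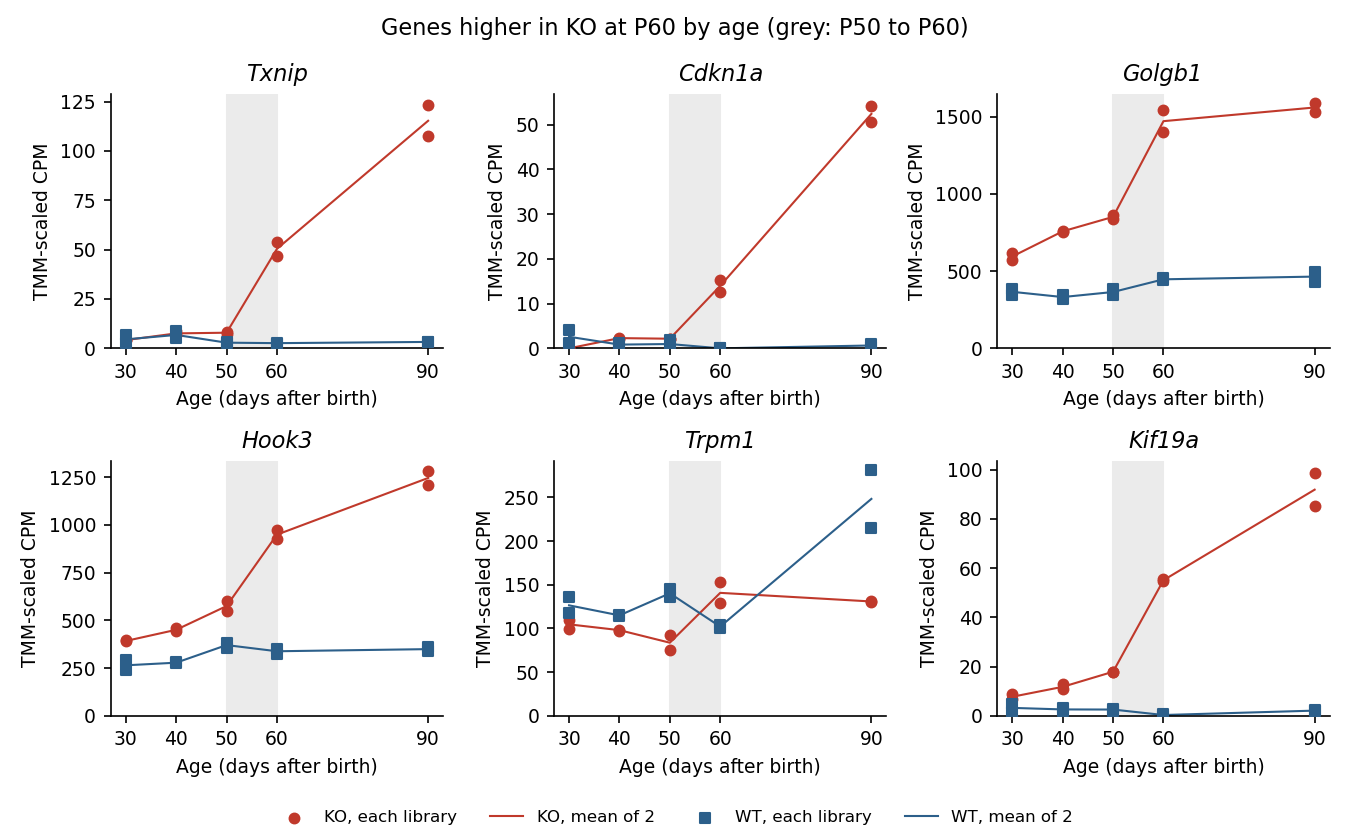
TMM-scaled CPM of 6 genes called higher at P60 than at P50 in the knockout (vertical axes from 0) against age in days after birth, with knockout libraries as red circles, WT libraries as blue squares and lines through the means of 2. Txnip, Cdkn1a and Kif19a leave low values between P50 and P60 (grey) and are higher at P90, while Trpm1 at P60 lies within the range of the WT libraries.

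In the p53 and apoptosis list 4 of 29 members rose and 1 fell, beside 3.43% and 2.90% of all members, with a median log2 change of 0.16. Cdkn1a, the cell cycle inhibitor p21 and a classical p53 target (chromosome 17, 29090976 to 29100727), had 2.12 and 2.17 CPM at P50 and 12.7 and 15.2 CPM at P60, a 6.45-fold rise from a low base (log2 change 2.69 ± 0.52 (SE), adjusted p = 0.000313). It was at 0 counts in both knockout libraries at P30 and at 50.6 and 54.2 CPM at P90, and 3 of the 4 WT libraries of P50 and P60 had 0 counts. Trp53inp1, Sesn1 and Ccng1, further p53-responsive genes, rose with log2 changes of 0.57, 0.56 and 0.35 (adjusted p = 0.000103, 0.00295 and 0.0236). Mdm2 and Bax, 2 other p53 targets, were not called, with 0.15 ± 0.12 and 0.45 ± 0.45 (SE). Sesn1 was not called without P50 r2 (0.133) or P60 r2 (0.0562). Ccng1 was not called without P50 r1 (0.0888), P50 r2 (0.362) or P60 r2 (0.279).

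Of 30 members of the unfolded protein and integrated stress response none was called by edgeR or DESeq2, and 3 passed an unadjusted p of 0.05. The chaperone gene Hspa5 had 1111 and 1111 CPM at P50 and 1129 and 1118 CPM at P60 (log2 change 0.016 ± 0.072 (SE), adjusted p = 0.954), and Atf4 and Ddit3, factors of that response, had log2 changes of 0.0056 and 0.011, all within their standard errors. In the heat shock list 1 of 29 was called, Hspa1b (log2 change 1.56 ± 0.46 (SE), adjusted p = 0.0364), whose near-identical copy Hspa1a makes its count uncertain and had a log2 change of 0.66 (adjusted p = 0.437). Immediate early genes had 2 of 14 higher, Btg2 from 449 and 472 to 696 and 712 CPM (log2 change 0.61 ± 0.090 (SE), adjusted p = 1.51e-06) and Jun from 43.8 and 41.5 to 74.5 and 67.1 CPM (log2 change 0.73 ± 0.18 (SE), adjusted p = 0.00585), and Dusp6 lower (log2 change -0.95 ± 0.27 (SE), adjusted p = 0.0273). Hspa1b was not called without P50 r1 (0.306), P50 r2 (0.202) or P60 r2 (0.277). Jun was not called without P50 r1 (0.0693), P50 r2 (0.133) or P60 r1 (0.0959). Dusp6 was not called without P50 r1 (0.127), P50 r2 (0.203), P60 r1 (0.126) or P60 r2 (0.113).

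Lifr, a receptor of the leukaemia inhibitory factor pathway that protects photoreceptors, was the 1 called of 8 members of the stress and gliosis list and rose from 251 and 238 to 344 and 354 CPM (log2 change 0.51 ± 0.098 (SE), adjusted p = 0.000202). In the antioxidant list 2 of 21 fell, Mt1 (log2 change -0.47 ± 0.11 (SE), adjusted p = 0.00639) and Prdx2 (log2 change -0.50 ± 0.12 (SE), adjusted p = 0.00557). Rdh12, a retinol dehydrogenase of photoreceptors, fell (log2 change -0.42 ± 0.091 (SE), adjusted p = 0.00148) as the 1 called of 10 visual cycle members, and Gabarapl1 as the 1 of 31 in the autophagy list (log2 change -0.29 ± 0.089 (SE), adjusted p = 0.0399). Cholesterol synthesis (26 members) and the proteasome (31 members) had no gene called by edgeR or DESeq2, with 5 and 4 at an unadjusted p below 0.05. Mt1 was not called without P50 r1 (0.0917) or P60 r2 (0.0776). Prdx2 was not called without P50 r1 (0.0766) or P60 r1 (0.249). Rdh12 was not called without P50 r1 (0.0809). Gabarapl1 was not called without P50 r1 (0.334), P50 r2 (0.141) or P60 r1 (0.345).

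Genes of the microRNA pathway itself had 1 of 17 members called. Tnrc6a, a partner of the Argonaute proteins in silencing, rose from 293 and 292 to 406 and 437 CPM (log2 change 0.53 ± 0.091 (SE), adjusted p = 4.49e-05). Drosha, the nuclease that works with DGCR8, had 109 and 106 CPM at P50 and 114 and 105 CPM at P60, and Dicer1 had 287 and 318 CPM at P50 and 361 and 366 CPM at P60, neither of them called (adjusted p = 0.962 and 0.108). In the fit of the knockout libraries alone Dicer1 was called higher (adjusted p = 0.0231). The list's median was 0.19. Of 10 microRNA loci that reached 5 CPM none was called by edgeR or DESeq2, with 2 at an unadjusted p below 0.05. Mir124a-2 had 18.9 and 17.9 CPM at P50 and 9.31 and 10.2 CPM at P60 (log2 change -0.91 ± 0.33 (SE), adjusted p = 0.106). Counts at such loci can come from longer transcripts that span them. Of 578 microRNA genes in the files 568 were below the level minimum.

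Among 10 transcripts that host microRNAs 2 rose. Trpm1, a cation channel of bipolar cells whose intron holds a microRNA (chromosome 7, 64153835 to 64269775), had 92.6 and 74.8 CPM at P50 and 153 and 129 CPM at P60 (log2 change 0.76 ± 0.12 (SE), adjusted p = 1.59e-05). The bipolar marker sum, which includes Trpm1, moved with it, from 547 and 517 CPM at P50 to 667 and 617 CPM at P60, and its part in the result was not tested. Meg3, a maternally expressed non-coding RNA, went from 166 and 155 to 239 and 223 CPM (log2 change 0.52 ± 0.10 (SE), adjusted p = 0.000338). In the list of nuclear long RNAs 4 of 12 rose, where 3.43% of all members did. They were Meg3, Malat1 from 81303 and 80074 to 131880 and 119300 CPM (log2 change 0.64 ± 0.11 (SE), adjusted p = 0.00813), Kcnq1ot1, an imprinted antisense RNA, from 436 and 439 to 602 and 596 CPM (log2 change 0.45 ± 0.085 (SE), adjusted p = 0.000155) and Snhg11 (log2 change 0.58 ± 0.13 (SE), adjusted p = 0.00202). Of 25 chromatin genes 2 rose, Chd4 (log2 change 0.38 ± 0.093 (SE), adjusted p = 0.00622) and Mll2 (log2 change 0.35 ± 0.098 (SE), adjusted p = 0.0211). Malat1 was not called without P50 r1 (0.0766), P50 r2 (0.0878) or P60 r1 (0.0841). Snhg11 was not called without P50 r2 (0.154) or P60 r1 (0.0754). Chd4 was not called without P50 r1 (0.0969), P50 r2 (0.0884) or P60 r1 (0.419). Mll2 was not called without P50 r1 (0.265), P50 r2 (0.139), P60 r1 (0.124) or P60 r2 (0.0642).

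**Figure D4:**
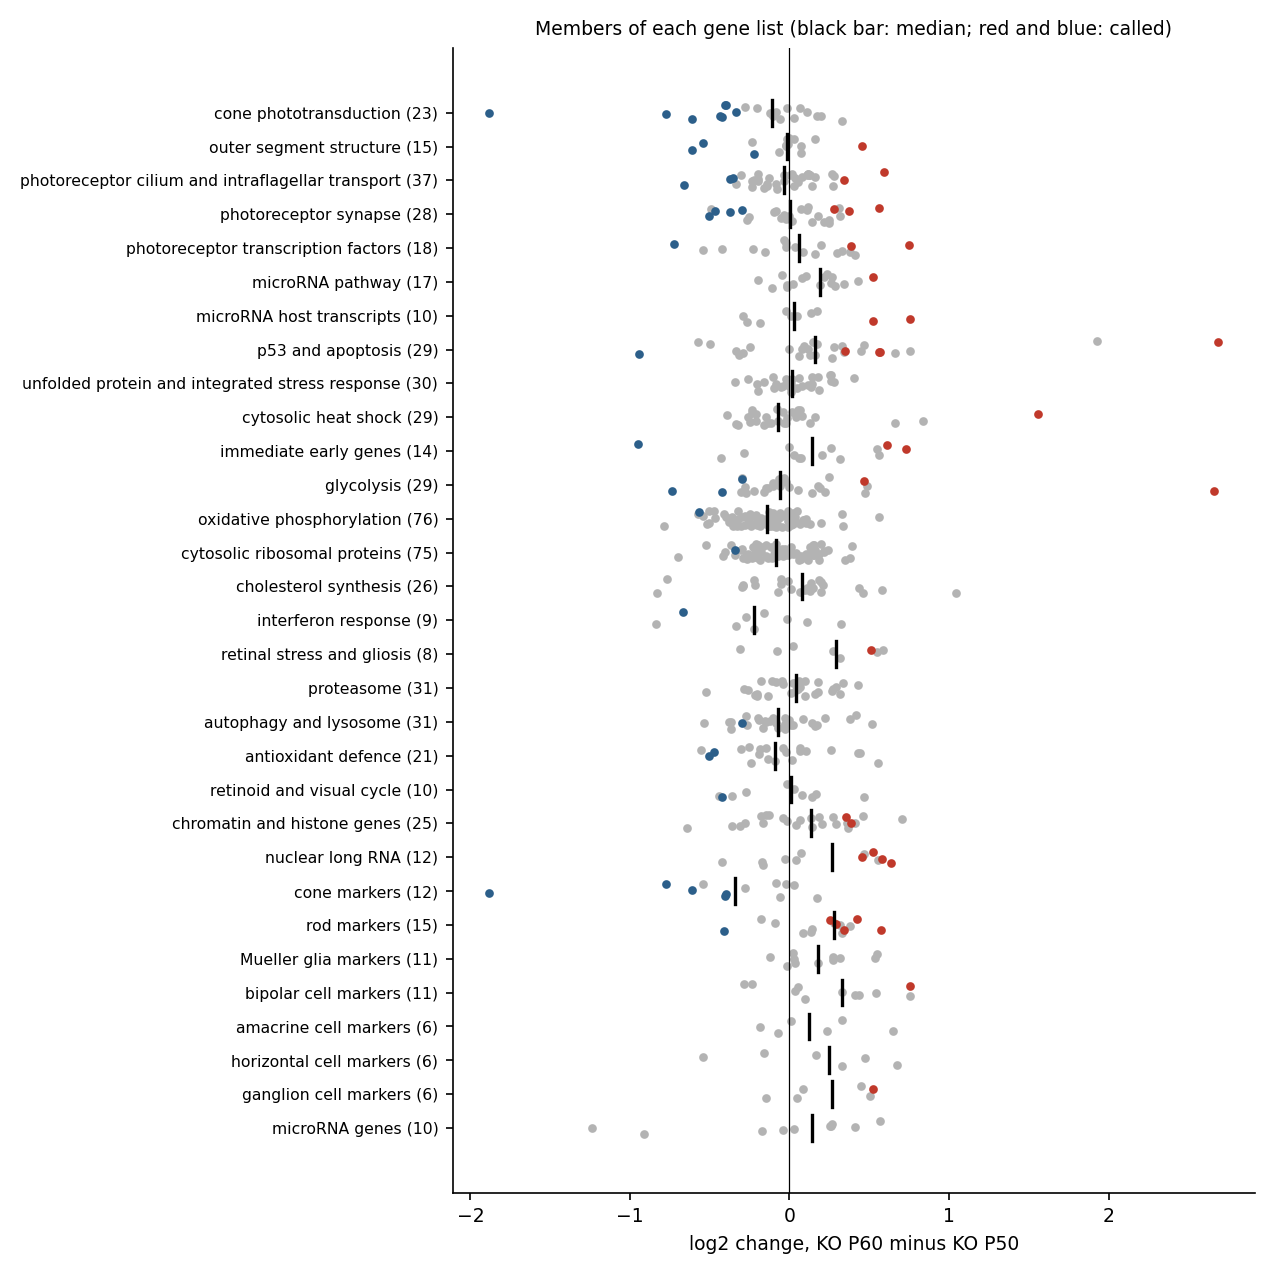
Log2 change from P50 to P60 in knockout cones (horizontal axis) of every member of each gene list with 5 or more members (rows, number of members in brackets), with genes called higher in red, called lower in blue, not called in grey, and a black bar at each list's median. Cone phototransduction and cone markers lean left through their called members, and the unfolded protein list centres near 0. The marker lists of rods and of every other cell type shown have medians to the right of 0.

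The sort was checked against markers of cones and of the other cells of the eye. All 12 cone markers were among the members, and no cone marker was at 0. Rod transcripts were present at levels in the same range as those of cones. The 15 rod markers summed to 13457 and 13649 CPM at P50 and 14666 and 14523 CPM at P60. Gnat1, the α subunit of rod transducin, had 1069.8 and 1131 CPM at P50 and 1199 and 1213 CPM at P60 and was not called (log2 change 0.13 ± 0.072 (SE), adjusted p = 0.357). Of the 15 rod markers, Pde6a (log2 change 0.34 ± 0.067 (SE), adjusted p = 0.000292), Slc24a1 (log2 change 0.42 ± 0.089 (SE), adjusted p = 0.00105), Reep6 (log2 change 0.58 ± 0.14 (SE), adjusted p = 0.00734), Gnb1 (log2 change 0.29 ± 0.075 (SE), adjusted p = 0.011) and Pde6b (log2 change 0.26 ± 0.075 (SE), adjusted p = 0.0319) rose and Pde6g (log2 change -0.41 ± 0.11 (SE), adjusted p = 0.0134) fell. The 5 rises dropped to 1 without KO P50 replicate 1, without KO P50 replicate 2 and without KO P60 replicate 1, and were 6 without KO P60 replicate 2. Pde6a was not called without P50 r1 (0.0589). Slc24a1 was not called without P50 r2 (0.0657) or P60 r1 (0.251). Reep6 was not called without P50 r1 (0.148), P50 r2 (0.0513) or P60 r1 (0.391). Gnb1 was not called without P50 r1 (0.11), P50 r2 (0.207) or P60 r1 (0.283). Pde6b was not called with no filter on low counts (0.0641), without P50 r1 (0.446), P50 r2 (0.108), P60 r1 (0.156) or P60 r2 (0.0995). Pde6g was not called without P50 r2 (0.244), P60 r1 (0.11) or P60 r2 (0.0562). No rod marker was at 0 in the 4 libraries.

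Markers of other cells summed to less. Mueller glia markers (14 genes) summed to 1298 and 1274 CPM at P50 and 1444 and 1458 CPM at P60, with no member called among 11 by edgeR or DESeq2 and 4 at an unadjusted p below 0.05. Amacrine markers (11 genes) summed to 228 and 246 CPM at P50 and 245 and 291 CPM at P60, horizontal cell markers (7 genes) to 218 and 221 CPM and then to 224 and 246 CPM, and ganglion cell markers (11 genes) to 286 and 301 CPM and then to 381 and 340 CPM. In the last list Nefh, a neurofilament gene, was called (log2 change 0.53 ± 0.14 (SE), adjusted p = 0.0112). Nefh was not called without P50 r1 (0.108), P50 r2 (0.141) or P60 r1 (0.247). Vessel markers summed to 75.7 to 105 CPM in the 4 libraries, astrocyte markers to 20.1 to 25.6 CPM, pigment epithelium markers to 17.5 to 20.6 CPM and microglia markers to 8.04 to 15.0 CPM. Erythrocyte genes reached at most 1.59 CPM in sum, with 2 of 4 at 0 in all 4 libraries, and lens genes at most 5.35 CPM, with 1 of 14 at 0. None of the other lists had a gene at 0 in all 4 libraries. The part of these cells in the results was not tested.

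The same interval in WT cones shares no library with the knockout step and was set beside it. Of the members 4080 (39.7%) were called in WT, 3041 higher (29.6%) and 1039 lower (10.1%), with a median of 0.25. This split turned with the scaling. Of the WT calls 74.5% were higher with TMM over all genes and 38% with factors from abundant genes, which moved the WT median by -0.27. The knockout split turned as well, from 54.2% to 48.9% higher (327 higher and 342 lower) with those factors, while the knockout median moved by at most 0.022 under any setting.

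Tested as a difference, 2857 members (27.8%) had unequal steps in the genotypes, 922 with the knockout step higher (8.96%) and 1935 with it lower (18.8%). The share with the higher step was 32.3% of those calls, and 63.5% with factors from abundant genes. Set beside the WT step, 205 of the 298 genes that fell in the knockout (68.8%) rose in WT, which is 6.74% of the genes that rose in WT, and 15 (5.03%) also fell there, 1.44% of those that fell in WT. Their median log2 change was -0.54 in the knockout and 0.47 in WT. Of the 353 that rose in the knockout, 120 (34%) also rose in WT, 3.95% of the genes that rose there, and 67 (19%) fell. Their medians were 0.53 and 0.13. The WT median of all members was 0.25, and all WT values move with the scaling as given above.

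Among the cone phototransduction members 17 of 23 rose in WT and 1 fell, and 18 had a knockout step below the WT step and 2 above it. Of all members 29.6% rose and 10.1% fell in WT, and 18.8% had a knockout step below the WT step and 8.96% above it. Opn1mw had a WT step of 0.79 and a difference of -2.68 ± 0.13 (SE), with an adjusted p of 4.74e-18. Opn1sw differed by -1.40, Pde6c by -1.53 and Gnat2 by -0.93. Arr3 and Pde6h, not called in the knockout, rose in WT by 1.24 and 0.83 on the log2 scale. Rises shared by both genotypes included those of Cacna1h (1.15 in the knockout and 0.80 in WT), Tc2n (1.18 and 0.96), Cit (0.90 and 0.96) and Peg3 (0.73 and 0.61), whose differences were not called (adjusted p = 0.117, 0.417, 0.878 and 0.515). Pcdh15 (0.46 and 0.45), Cplx3 (0.56 and 0.82), Tnrc6a (0.53 and 0.45), Cep290 (0.35 and 0.29), Chd4 (0.38 and 0.44) and Pfkm (0.46 and 0.49) also rose in both, without a called difference. So did Eno3, Mvp, Casz1, Cacna2d4, Sesn1 and Malat1. Of these further genes only Pcdh15 and Cplx3 kept the WT call under every setting. Txnip had a WT step of -0.12 (adjusted p = 0.839) and Hook3 of -0.13 (adjusted p = 0.19), and both differed between genotypes, by 2.78 and 0.85. Of the 15 rod markers 12 fell in WT.

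**Figure D5:**
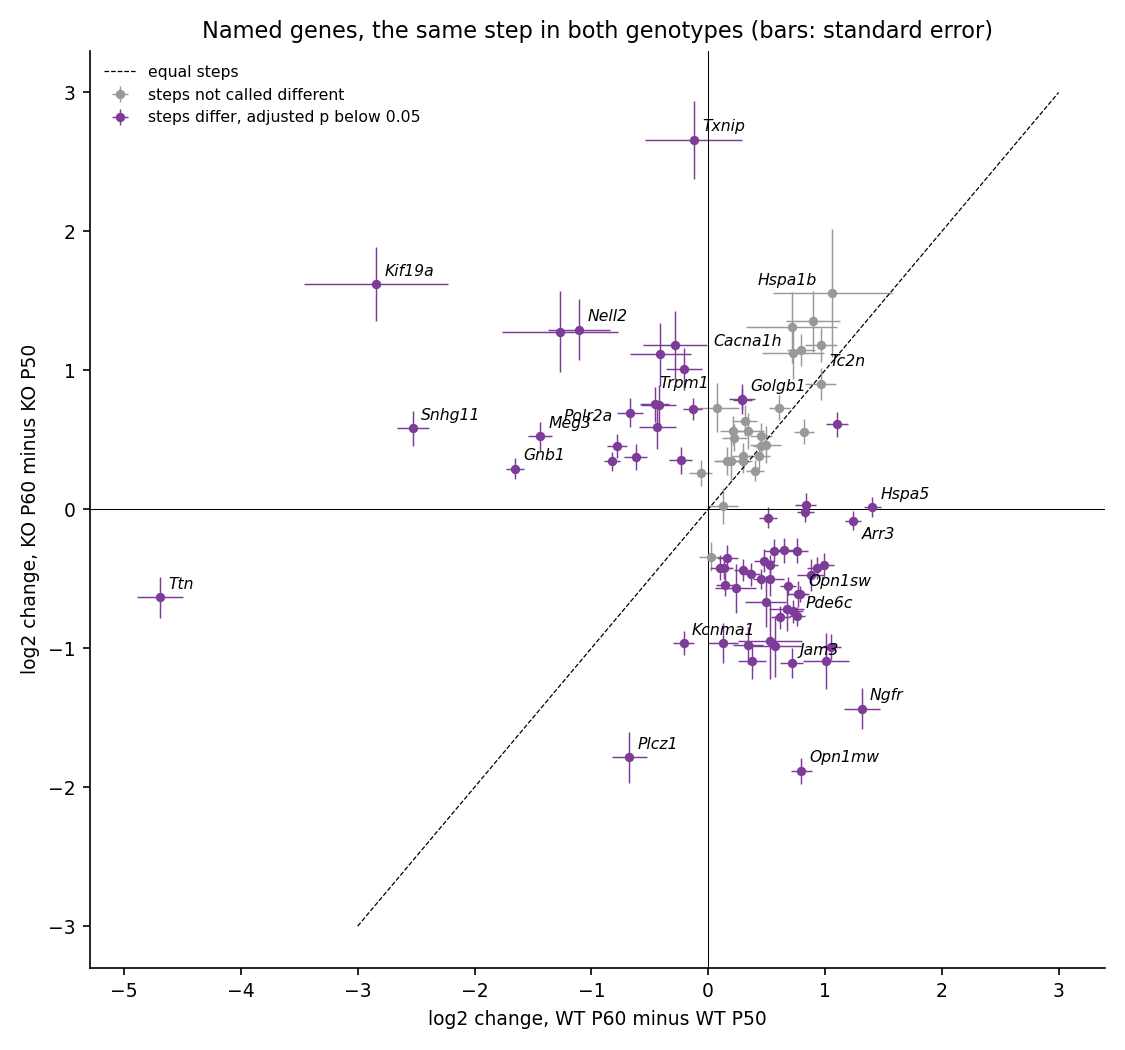
Log2 change from P50 to P60 in knockout cones (vertical axis) against that in WT cones (horizontal axis) for the named genes other than Cdkn1a, with standard errors as bars, purple where the steps differ at an adjusted p below 0.05 and grey where they do not, and a dashed line of equal steps. Cone genes lie at the lower right, lower in the knockout and higher in WT, and Cacna1h and Tc2n lie near the line.

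Transcript length was a property the selection did not use. The summed exon length, matched for 98.8% of members, had a median of 8010 bases for genes that rose, 4346 bases for those that fell and 4945 bases for those not called. In 4 equal groups by length, 26 genes rose and 92 fell in the shortest, and 184 rose and 47 fell in the longest, where 7.24% of 2540 genes rose beside 1.02% of 2542 in the shortest. The median log2 change went from -0.057 in the shortest group to 0.088 in the longest. In WT it went from 0.32 to 0.11, the other way. Across genes, which are not independent replicates and share libraries, the Spearman correlation of the knockout change was 0.16 with length and 0.087 with GC content. RNA quality and the share of unspliced RNA were not measured in the files, and their part in this trend was not tested.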

How the data were processed

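Per the labels' protocols, sorted cones gave RNA by Trizol or a PicoPure kit, 150 ng went into a ScriptSeq Complete Low Input kit, and libraries were sequenced in pools of 4 on a HiSeq 2000. The submitters' processing notes name CASAVA 1.8.0 and the build mm10 (GRCm38). No source used here names the aligner, counter, annotation, strand setting or which libraries shared a lane, so reads of overlapping or antisense genes cannot be told apart. The authors deposited whole-number counts per gene symbol, unscaled, in 20 files, and 2 unnamed entries with 14 counts were left out.

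Counts of all 20 libraries in 10 groups were fitted with edgeR 4.0.16 (quasi-likelihood, TMM, filterByExpr, R 4.3.3, limma 3.58.1). The filter left 18354 genes and the Benjamini-Hochberg adjustment ran over all of them. SE is the absolute log2 change over the square root of F. Alternatives were DESeq2 1.42.0, other scalings and filters, a replicate block, fewer groups, each library left out, and a fit of the knockout alone. Symbols were matched to GENCODE M21 (20869 directly, 1744 by an older symbol, 464 not to 1 gene), and all 4 promoters shown matched RefSeq. On data simulated for the P50 to P60 knockout step over 18449 genes, 5% of 1.5-fold and 52% of 2-fold changes were recovered and 4 of 61 calls were false. The simulation gave every gene the same variation between replicates, a coefficient of variation of 0.16 beyond sampling. The fit of the real counts let this variation differ between genes, so the rates describe the simulated setting only. Figures were drawn with matplotlib 3.10.9 (pandas 2.3.3, numpy 2.4.6) under Python 3.11.15.

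Named genes are the 12 called genes each way of smallest p, the 10 each way of largest change at 32 CPM or more, up to 6 called members each way per list by smallest p, 6 each way by smallest p of the difference of steps, and a fixed set with Dgcr8, Drosha, Dicer1, Crx and 8 cone genes. In the first 2 sets both P60 libraries lie on the same side of both P50 libraries, and clone-type names, Xist and Y-linked genes were passed over. The members, lists, tests and rules were chosen with earlier results of these data known. The main fit did not pair libraries by replicate number. The replicate differences at P50 and P60 correlated at -0.0045, which cannot show whether replicates of the same number shared a lane or preparation. CPM in the text are TMM-scaled. Results for a few further genes are not reported here.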

Additional observations from a re-analysis of the deposited data

Results flagged for a closer look

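Steps from P50 to P60 that differed between knockout and WT cones, by the test of the difference itself in edgeR at an adjusted p below 0.05, are given here as the knockout step minus the WT step in log2. The WT libraries of P60 stand apart from other WT ages, and scaling by abundant genes moved the median difference of all members by 0.25. Only the named genes were looked at here. Over whole lists the steps differed for 2 genes higher and 18 lower of 23 in cone phototransduction and 0 and 11 of 15 in the outer segment. The cilium had 1 and 16 of 37 and the synapse 5 and 13 of 28. Of all members 8.96% were higher and 18.8% lower. Heat shock (0 and 22 of 29), glycolysis (2 and 18 of 29) and the unfolded protein list (0 and 17 of 30) also leaned lower. Nuclear long RNAs (5 and 0 of 12) and rod markers (12 and 3 of 15) leaned higher. Higher steps were 32.3% of all called differences, and 63.5% with factors from abundant genes. Named cone phototransduction genes had differences of Opn1mw (-2.68), Opn1sw (-1.40), Pde6c (-1.53), Arr3 (-1.33), Gnat2 (-0.93), Pde6h (-0.81), Cnga3 (-1.40), Cngb3 (-0.57), Rcvrn (-0.56) and Kcnv2 (-0.73), each with the knockout step lower, and the transcription factor gene Crx (-0.85) likewise. Named genes of the outer segment, cilium and synapse had Impg1 (-1.38), Crb1 (-0.69), Unc119 (-0.85), Lca5 (-0.52), Pde6d (-1.16), Stx3 (-0.96), Cplx4 (-0.83) and Dlg4 (-1.06) with the knockout step lower, and Rpgr (1.03) and Pclo (1.00) with it higher. Other genes with a lower step in the knockout were, by size, Ngfr (-2.75), Etv5 (-2.10), Fam19a3 (-2.04), Jam3 (-1.82), Il9r (-1.56), Dusp6 (-1.47), Osgep (-1.47), Eno2 (-1.46), Ckmt1 (-1.39), Prdm1 (-1.39), Hspa5 (-1.39), Hk2 (-1.35), Mt1 (-1.35), Gem (-1.32), Akap11 (-1.24), Plcz1 (-1.11), Tmsb10 (-1.09), Prdx2 (-1.03), Gabarapl1 (-0.94), Slc16a1 (-0.86), Atp5g3 (-0.81), Kcnma1 (-0.75), Rdh12 (-0.53) and Btg2 (-0.49). A higher step in the knockout was seen for Kif19a (4.46), Ttn (4.06), Snhg11 (3.11), Txnip (2.78), Cd8a (2.55), Nell2 (2.40), Meg3 (1.96), Gnb1 (1.95), Rgag4 (1.52), Nynrin (1.47), Polr2a (1.37), Kcnq1ot1 (1.23), Cd164 (1.22), Trpm1 (1.21), Samd11 (1.17), Pde6a (1.17), Hook3 (0.85), Mll2 (0.59), Kcnab1 (0.50) and Golgb1 (0.50). Of the differences in these sentences 5 lost their call under some setting. Those of Btg2, Lca5 and Rdh12 did so with factors from abundant genes (adjusted p = 0.152, 0.110 and 0.105) and with members only (0.120, 0.0718 and 0.0708). That of Kcnab1 did so without WT P60 replicate 1 (0.115) and without KO P50 replicate 2 (0.120). That of Atp5g3 did so under 6 of 15 settings, with adjusted p of 0.0502 to 0.0977. Kif19a rests on 6 counts in the WT libraries of P60, and Cdkn1a, with 0 counts there, is not given. Ttn, the giant muscle protein titin, went from 75.8 and 77.7 to 55.9 and 43.4 CPM in the knockout (log2 change -0.63 ± 0.15 (SE), adjusted p = 0.00496) and in WT had 106 and 101 CPM at P50 and 5.59 and 2.29 CPM at P60. Ttn was not called without P50 r2 (0.0716) or P60 r2 (0.127).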

How the results depend on the processing

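Of 84 named genes called in the knockout step, 51 kept the call under every setting. DESeq2 lost 1 and a fit of the compared groups only lost 5, and leaving out a knockout library lost 14 to 27. Scaling and the low-count filter lost none of the 84. Pde6b, a rod marker outside the naming rule, was lost with no filter (0.0641). With the replicate block 339 genes were higher and 292 lower and no named call changed, though whether the numbers pair any libraries is not known. Leave-one-out counts were 99 to 311 higher and 131 to 379 lower in the knockout, and 1 to 6 for rod markers. The knockout libraries alone, added after the data were seen, gave 579 higher and 9 rod markers.

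WT counts higher were 1691 with DESeq2, 1810 with RLE factors, 1042 with factors from abundant genes, 1082 with members only and 1568 with compared groups only, and lower were 1701 with factors from abundant genes, 2558 from 1 CPM and 287 from 32 CPM. Genes with the higher knockout step numbered 1425, 1866 and 344 under the same last 3 settings, and those with the lower step 1172, 1240, 820, 891 and 1140 under the same first 5, in that order. Directions turned for uncalled genes near 0: Hspa5 to -0.0017 with factors from abundant genes, and with a library left out Drosha ran from -0.033 (P60 r1) to 0.078, Pde6h from -0.023 (P60 r2) to 0.073, Cngb3 from -0.14 to 0.0081 (P50 r2) and Crx from -0.063 to 0.020 (P60 r1), with 0.0046 without P50 r2. The cause was not tested. Of 65 named differences 60 kept their call, and of 68 named WT steps 45 did. In simulated data with changes set in randomly drawn members, 5% of 1.5-fold and 52% of 2-fold changes were recovered. There all genes had the same variation between replicates, so these rates do not give the recovery in the real counts.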

Other observations

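Some further genes of the knockout step, picked after their values were seen, belong to families that no list covered in full. The families were also written out after the values were seen, and their genes at 5 CPM or more were looked at. Genes induced by ERK signalling, 10 in all, include Etv5 and Dusp6 above. Those called were all lower, where 2.90% of all members were called lower. This family too was picked for its values, and nothing is read from the number called. Dusp4, a phosphatase of the pathway, had 36.3 and 29.96 CPM at P50 and 19.6 and 9.05 CPM at P60 (log2 change -1.22 ± 0.26 (SE), adjusted p = 0.00117), Spred1, an inhibitor of it, 119 and 147 CPM at P50 and 80.1 and 83.6 CPM at P60 (log2 change -0.70 ± 0.12 (SE), adjusted p = 5.60e-05), and Spred3 42.1 and 37.3 CPM at P50 and 26.1 and 22.8 CPM at P60 (log2 change -0.70 ± 0.19 (SE), adjusted p = 0.0211). Spry2, Spry3, Spry4, Spred2 and Dusp7 had log2 changes of -0.23, -0.32, -0.98, -0.49 and -0.54, none called. In WT Etv5, Dusp4, Spred1, Spred3 and Dusp7 were called higher (1.01, 1.20, 0.43, 1.18 and 0.94). Their knockout steps were called lower than those of WT, by -2.10, -2.42, -1.14, -1.88 and -1.47. The WT steps of Dusp6, Spry2, Spry3, Spry4 and Spred2 were not called (0.53, -0.81, -0.39, -0.046 and -1.26). Dusp4 was not called without P60 r2 (0.132). Spred1 was not called without P50 r2 (0.0509). Spred3 was not called with only the 2 groups fitted (0.078), without P50 r1 (0.237), P50 r2 (0.0805), P60 r1 (0.0598) or P60 r2 (0.142).

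Of 11 genes of actin filaments and their membrane links 6 were called, all higher, where 3.43% of all members were called higher. The family was picked for its values, and nothing is read from this count. Flna, which cross-links actin, had a log2 change of 0.87 ± 0.16 (SE), Tln1 and Actn4 of 0.93 ± 0.20 and 0.76 ± 0.15 (SE), and Iqgap1, Myh9 and Plec of 0.76, 0.53 and 0.43. The paralogues Tln2 and Myh10 had -0.041 and 0.064 and were not called. In WT Flna, Tln1, Myh9 and Plec rose as well, with log2 changes of 0.97, 0.59, 0.75 and 1.48. Actn4 and Iqgap1 were not called in WT (0.29 and -0.047). The knockout step was above the WT step for Iqgap1 (adjusted p = 0.00548) and below it for Plec (adjusted p = 1.51e-09). The differences of Flna, Tln1, Actn4 and Myh9 were not called. Tln1 was not called without P50 r1 (0.0996) or P60 r1 (0.0652). Actn4 was not called without P50 r1 (0.166). Iqgap1 was not called without P50 r1 (0.0547). Myh9 was not called without P50 r2 (0.073). Plec was not called without P50 r1 (0.0569) or P60 r1 (0.0972).

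Of 8 p53 targets looked at in the same way 3 were called, Btg2 above, Plk2 and Eda2r, all higher, where 3.43% of all members were. These genes too were picked for their values, and nothing is read from this count. Plk2 had 17.0 and 18.4 CPM at P50 and 46.1 and 51.4 CPM at P60 (log2 change 1.46 ± 0.25 (SE), adjusted p = 4.83e-05) and Eda2r 3.40 and 3.76 CPM at P50 and 15.2 and 13.1 CPM at P60 (log2 change 1.97 ± 0.49 (SE), adjusted p = 0.00763), while Mdm2, Phlda3, Zmat3, Aen and Sesn2 were not called (0.15, 1.93, 0.26, 0.064 and 0.28). Eda2r was not called without P50 r1 (0.119), P50 r2 (0.105) or P60 r1 (0.059). Among 8 voltage-gated channel genes, picked likewise from a larger family, Kcnab2 fell from 186 and 205 to 116 and 133 CPM (log2 change -0.65 ± 0.10 (SE), adjusted p = 5.37e-06) and Cacnb2 from 306 and 314 to 191 and 221 CPM (log2 change -0.59 ± 0.095 (SE), adjusted p = 1.14e-05), beside the fall of Kcnma1 and the rises of Kcnab1 and Cacna1h. Kcnc1, Kcnc2 and Cacna1f had log2 changes of -0.46, 0.17 and 0.12, none called.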
